A study of Homo sapiens with 5 samples.

Results

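When human leukaemia cells are recovered from an organ of a transplanted mouse, RNA of the mouse's own cells comes with them. The mouse transcripts in 3 libraries of leukaemia cells from brain and 2 from spleen are described here. Members were chosen by name alone, as every row whose transcript identifier carries the mouse Ensembl prefix: 104229 of 303825 rows in each library's table, beside 199596 human rows. REH, an established leukaemia line of human B cell precursors with the t(12;21) ETV6-RUNX1 (TEL-AML1) rearrangement, was grown in NSG mice (strain NOD.Cg-PrkdcscidIl2rgtm1Wjl/SzJ), transplanted at an age of 6 to 10 weeks. Cells of both groups were taken at the end of the experiment, from the leptomeninges for the brain libraries and from the spleen for the others, and enriched on a Ficoll density gradient. The labels name no drug treatment, and mice without leukaemia are not part of the data. Each library is RNA of 5 mice in 1 pool, and the replicate number marks 1 of 3 separate occasions. This rests on the sample titles: the deposited spleen tables carry other numbers than the titles, so which spleen library goes with which brain library is not certain. A spleen pool of the third occasion failed the submitters' quality control and is not analysed here. The spread between libraries is therefore a spread between occasions, and no value belongs to a single animal.

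NSG mice carry the scid mutation and lack the common cytokine receptor gamma chain, and so have no mature B, T or natural killer cells of their own. The host cells that remain include myeloid and erythroid cells, endothelium, pericytes and fibroblasts. The leptomeninges are the thin inner membranes of the brain, built of arachnoid and pial cells around vessels and resident macrophages, with neural tissue and choroid plexus close by. The spleen holds red pulp, where old red cells are cleared and, in mice, new ones form, beside stromal and sinusoidal cells. Which of these cells gave the mouse reads was not analysed here, because the tables give mouse transcripts by identifier only and the reference used here, a human one, pairs 0 of them with a gene. For the same reason transcripts were not summed to genes, cell type markers and the labelled tissue were not checked, and no sequence is shown.

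Mouse RNA was present in all 5 libraries and took a smaller part of each brain library than of each spleen library. Mouse transcripts held 5.70% of all estimated counts in brain replicate 1, 2.58% in brain replicate 2 and 2.64% in brain replicate 3, against 6.33% and 8.87% in spleen replicates 1 and 2. The brain libraries did not reach the level of either spleen library, but brain replicate 1 lay closer to spleen replicate 1 than to the other brain libraries. Exact binomial (Clopper-Pearson) 95% intervals extended by at most 0.00762 percentage points on either side, and they cover counting error only. The group means were 3.64% ± 1.79 (SD, n = 3) in brain and 7.60% ± 1.796 (SD, n = 2) in spleen, a difference of -3.96 percentage points. An exact two-sided permutation test gave p = 0.2. This test doubles the smaller tail probability, so 0.2 is its smallest value over the 10 splits of 3 libraries against 2. With brain and spleen paired by the numbers in the titles, the difference was -0.63 percentage points for replicate 1 and -6.29 for replicate 2. In bulk RNA, fewer mouse cells and less RNA per mouse cell cannot be told apart, and the recovery of leukaemia cells changes the share as well. The mouse totals behind all later values were 2321977, 1289149 and 1249073 estimated counts in brain replicates 1 to 3, and 3111252 and 4748881 in spleen replicates 1 and 2.

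**Figure D1:**
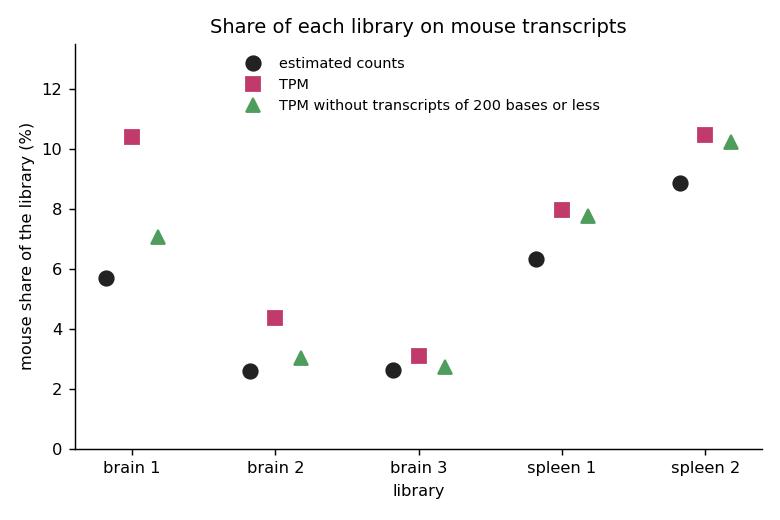
Mouse share of each library in percent (vertical axis) for the 3 brain and 2 spleen libraries (horizontal axis), by estimated counts (circles), by TPM (squares) and by TPM without transcripts of 200 bases or less (triangles). By counts the brain libraries lie between 2.58% and 5.70%, below 6.33% and 8.87% in spleen, while by TPM brain replicate 1 lies above spleen replicate 1.

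The unit changed where brain replicate 1 stood. TPM, which divides counts by the effective length of a transcript, gave mouse shares of 10.4%, 4.36% and 3.10% in brain replicates 1 to 3 and of 7.98% and 10.5% in spleen replicates 1 and 2. By this measure the groups overlapped, with means of 5.95% ± 3.90 (SD, n = 3) and 9.22% ± 1.76 (SD, n = 2) and an exact two-sided permutation p = 0.4. Transcripts of 200 bases or less held 40.8%, 35.9% and 14.2% of the mouse TPM in brain replicates 1 to 3, against 4.39% and 4.96% in spleen. They held under 1% of the mouse counts in each library, from 0.0838% in spleen replicate 2 to 0.693% in brain replicate 1. Without transcripts of 200 bases or less in either species, mouse TPM shares were 7.05%, 3.01% and 2.73% in brain and 7.76% and 10.2% in spleen, and the groups no longer overlapped.

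A single transcript of 159 bases held most of the TPM of that length class in brain. It took 37.3%, 32.3% and 11.1% of the mouse TPM in brain replicates 1 to 3, and 0.463% and 2.23% in spleen replicates 1 and 2. Its estimated counts were 10423, 3850 and 2188 in brain and 2269 and 1272 in spleen. Scaled to 1000000 mouse counts per library (CPM below) it stood at 4489, 2986 and 1752 in brain and at 729 and 268 in spleen, so every brain library was above both spleen libraries. By edgeR its brain over spleen log2 fold change of 2.63, with an SE of 0.687, missed the threshold (adjusted p = 0.0608). The effective length that the authors' deposited tables give for it was 8.16, 7.26 and 18.4 bases in the brain libraries and 14.3 in spleen replicate 2, but 159 in spleen replicate 1, the full length of the transcript. The low TPM in spleen replicate 1 therefore goes with an effective length unlike that of the other 4 libraries. CPM values are used in what follows, since they are not divided by this length.

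**Figure D2:**
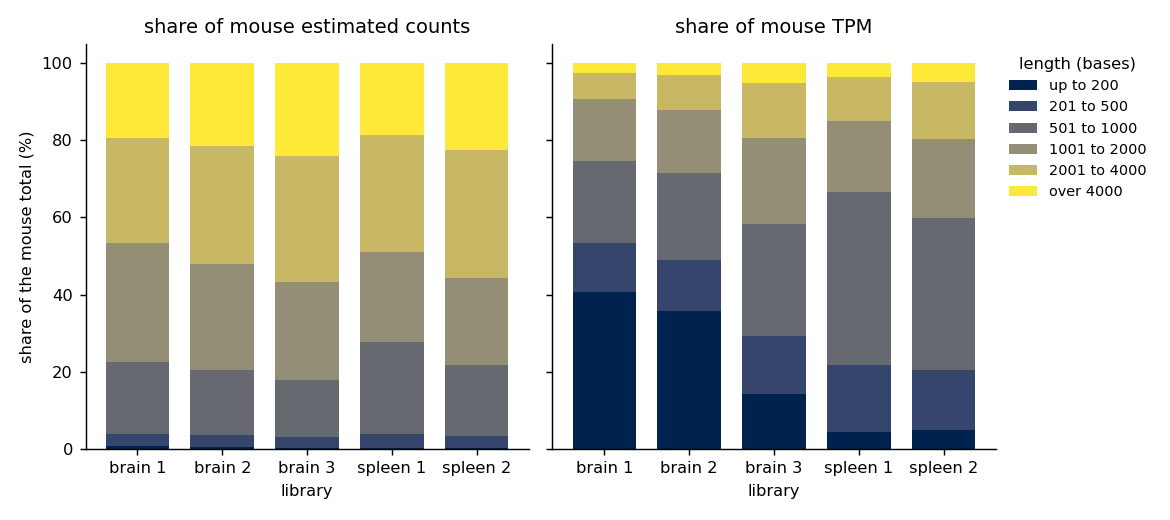
Share of the mouse total in percent (vertical axis) held by 6 classes of transcript length, stacked for each library, by estimated counts (left) and by TPM (right). By counts the class of 501 to 1000 bases ranges from 14.8% in brain replicate 3 to 23.8% in spleen replicate 1, while by TPM transcripts of up to 200 bases take from 4.39% in spleen replicate 1 to 40.8% in brain replicate 1.

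Brain replicate 1 had the most concentrated host RNA and spleen replicate 2 the least, and the sites overlapped. The 10 most abundant transcripts of a library held 25.6%, 17.6% and 11.9% of its mouse counts in brain replicates 1 to 3, and 13.8% and 8.46% in spleen replicates 1 and 2. It took 281, 665 and 913 transcripts to reach 50% of the mouse counts in brain replicates 1 to 3, against 828 and 1267 in spleen. The means were 620 ± 318 (SD, n = 3) and 1048 ± 310 (SD, n = 2), with an exact two-sided permutation p = 0.4. Human transcripts of the same libraries needed between 1675 and 2004 to reach 50% of the human counts, and their 10 most abundant held 4.58% to 5.41%. At a level of at least 10 CPM, which the shallowest library could still resolve, 11205, 12352 and 12291 mouse transcripts were present in brain and 11672 and 12699 in spleen, so the breadth of the host RNA overlapped between the sites.

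**Figure D3:**
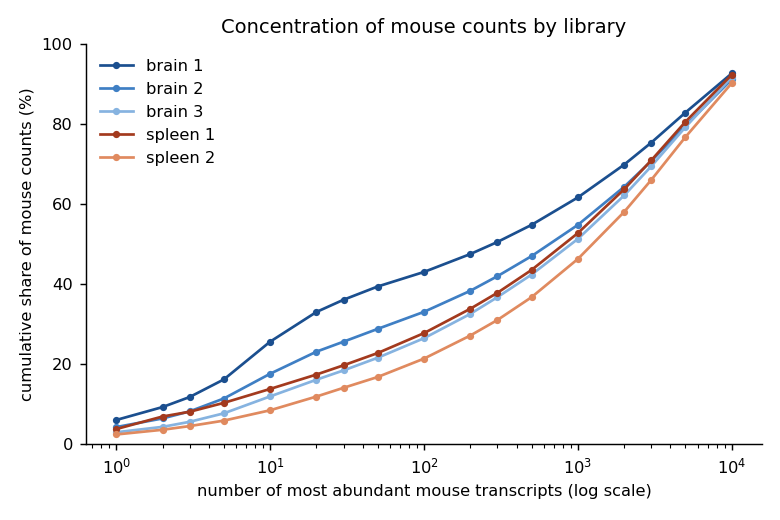
Cumulative share of mouse counts in percent (vertical axis) held by the most abundant mouse transcripts of each library, against their number (horizontal axis, log scale). The line of brain replicate 1 lies highest at every rank plotted, with 43.0% of the counts on 100 transcripts, and that of spleen replicate 2 lowest, with 21.4%.

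The transcripts at the top of the list differed between the sites. Of the 10 most abundant, 8 were shared by all 3 brain libraries and 9 by both spleen libraries, but at most 2 by any brain and spleen library. Of the 100 most abundant, 64 were shared by the brain libraries, 87 by the spleen libraries, and between 35 and 40 by a brain and a spleen library. Ranks and shares here are of counts, not per length, and since a rank is itself a measured value these leading transcripts are a description of the libraries.

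The most abundant host transcript in all 3 brain libraries, of 1545 bases, held 6.03%, 4.26% and 2.96% of the mouse counts there and 1.17% and 0.920% in spleen. Every brain library was above both spleen libraries, but its log2 fold change of 2.08, with an SE of 0.783, missed the threshold (edgeR adjusted p = 0.135). The 10 transcripts with the highest mean share in brain were between 681 and 3881 bases long. Together they held 24.1%, 17.6% and 11.9% of the mouse counts in brain replicates 1 to 3 and 3.804% and 3.56% in spleen replicates 1 and 2. Their log2 fold changes ranged from 1.60 to 3.08. All 10 had every brain library above both spleen libraries, against 18.7% of all transcripts tested, and 3 of the 10 passed the threshold (adjusted p from 0.0372 to 0.207), against 7.92% called higher in brain. Since the 10 were picked for a high mean in brain, nothing is read from these counts. The brain libraries differed among themselves in this set, with the highest sum in brain replicate 1 and the lowest in brain replicate 3.

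In spleen the leading host transcript, of 699 bases, held 3.76% and 2.41% of the mouse counts, against 0.0691%, 0.148% and 0.101% in brain replicates 1 to 3. Its log2 fold change was -4.86 (SE 0.664, edgeR adjusted p = 0.0176). The second, of 778 bases, held 3.14% and 1.17% in spleen and between 0.0559% and 0.0811% in brain, and its log2 fold change was -5.06 (SE 0.675, adjusted p = 0.0169 in edgeR). Both stood in spleen replicate 1 above spleen replicate 2, and far below either in all 3 brain libraries. Of the 10 leading transcripts in spleen, between 392 and 1794 bases long, 6 passed with higher values in spleen, against 6.37% of all transcripts tested, and 8 had both spleen libraries above every brain library, against 38.7%. These 10 were picked for a high mean in spleen, so these counts are a description as well. A further 2, those of 1545 and 784 bases, are also among the leading 10 in brain and stood higher there. The other two were above all brain libraries in both spleen libraries without passing (adjusted p = 0.322 and 0.101).

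Across the mouse transcripts kept by the filter, brain and spleen libraries were less alike than libraries of 1 site. For the 20957 transcripts with at least 10 estimated counts in at least 2 libraries, Pearson's r of log2(CPM + 1) across transcripts was between 0.39 and 0.46 for a brain and a spleen library. It was between 0.70 and 0.75 among brain libraries and 0.87 between the spleen libraries. For 74536 human transcripts under the same filter, r was between 0.951 and 0.965 for a brain and a spleen library and between 0.958 and 0.970 within brain. These values are across transcripts, which are not independent, and the human values rest on many more counts per library. The difference between the species was not tested. The filter also admits transcripts through 1 site alone: 2010 reached 10 counts in brain libraries only and 3564 in spleen libraries only. Such transcripts set the sites apart in r and on the axes below by the way they were kept, and their part was not separated. On the first principal axis of the mouse values, which held 60.03% of their variance, coordinates were 114 to 124 for brain and -177 and -181 for spleen. The next axis, with 19.2%, set brain replicate 3 (-152) apart from brain replicates 1 and 2 (77.3 and 70.8), with the spleen libraries at 0.695 and 3.45.

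Of the 104229 mouse transcripts, 41950 had no count in any library, and 20957 (20.1%) passed the filter and could be named by a unique identifier. A further 55 rows passed but share their identifier with other rows. Among the tested, 8589 had at least 10 counts in all 5 libraries, 2010 reached that in 2 or 3 brain libraries and in 0 spleen libraries, and 3564 in both spleen libraries and in 0 brain libraries. These classes move with the mouse depth, which was higher in spleen.

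In the comparison of brain with spleen, 1660 mouse transcripts were higher in brain and 1336 in spleen by the quasi-likelihood test of edgeR at a Benjamini-Hochberg adjusted p of 0.05. These are 7.92% and 6.37% of the 20957 tested, 14.3% together, and 33.5% (7012) had an unadjusted p under 0.05. The lowest adjusted p was 0.0122. All 1660 had every brain library above both spleen libraries, and all 1336 the reverse, in CPM. Over all tested transcripts, the groups did not overlap with brain higher for 3925 (18.7%) and with spleen higher for 8110 (38.7%). The same fit on 74536 human transcripts called 0 (0%), with 6414 (8.61%) at an unadjusted p under 0.05; DESeq2 was not run on them. The median absolute log2 fold change was 1.15 for mouse transcripts and 0.37 for human transcripts, at median SEs of 0.783 and 0.492.

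These calls rest on few libraries. With the occasion as a block, 0 of 20957 passed (lowest adjusted p = 0.0811), with 2544 higher in brain and 3330 in spleen at an unadjusted p under 0.05. The block leaves fewer residual degrees of freedom than the main fit. Brain replicate 3, the only library of its occasion, adds nothing to the site contrast there. The 0 calls are therefore not read as an effect of the occasion. Without brain replicate 2, spleen replicate 1 or spleen replicate 2 the edgeR test also called 0, with lowest adjusted p of 0.0679, 0.0696 and 0.0761. At an unadjusted p under 0.05 there were then 2454, 2207 and 2392 higher in brain and 3741, 1871 and 1542 in spleen. DESeq2 on all 5 libraries called 3548 higher in brain and 2025 in spleen. It used its own scaling factors in place of the mouse totals, with a median log2 fold change of -0.06 against -0.42 in the main fit. Test and scaling thus changed together there. Without brain replicate 1 the counts were 1154 and 855, and without brain replicate 3 they were 1690 and 1586.

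The balance of directions depended on the scaling and on the count filter. With each library scaled to its mouse total, 55.4% of the calls were higher in brain and the median log2 fold change over all tested transcripts was -0.42. With TMM factors, which centre the bulk of transcripts, the median was -0.08 and 66.2% were higher in brain (2060 against 1051). With library totals of human and mouse counts together, where the larger mouse share of the spleen libraries enters, the median was -1.56 and 19.9% were higher in brain (1165 against 4691). Scaled to mouse totals but with at least 50 counts in 2 libraries, 39.3% of the calls were higher in brain (1095 against 1692, of 10217 tested). Of 2389 tested transcripts with a mean under 10 counts, 125 (5.23%) were called higher in brain and 0 (0%) in spleen. Of 994 with a mean of 300 to 1000 counts, 96 (9.66%) and 281 (28.3%) were. The filter and these classes use counts not scaled for mouse depth, which was higher in spleen. A transcript higher in spleen thus falls more easily into a high class, and this was not separated from the balance.

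**Figure D4:**
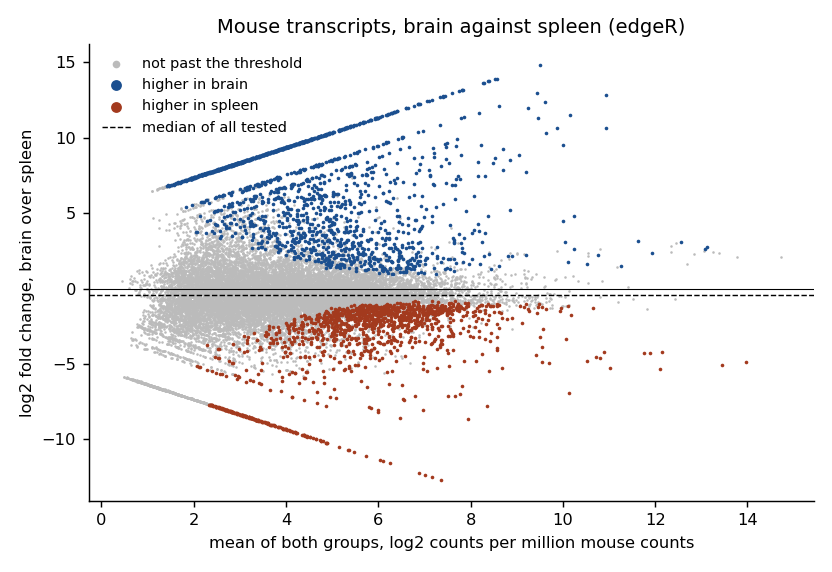
Log2 fold change, brain over spleen (vertical axis), against the log2 mean CPM of both groups (horizontal axis) for 20957 mouse transcripts, with the 1660 higher in brain in blue and the 1336 higher in spleen in red. The dashed line is the median of -0.42, and the straight rows of points at the upper and lower edge are transcripts with few or no counts in 1 group, whose fitted size depends on the prior count.

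Many of the called transcripts were near absence from the other site. Of the 1660, 874 had 3 or fewer estimated counts over both spleen libraries, and 586 had 0. Of the 1336, 246 had 3 or fewer over all 3 brain libraries, and 141 had 0. Spleen libraries had the greater mouse depth, and the difference between these shares was not tested. Of all 20957 transcripts kept by the filter, 911 had 0 counts in both spleen libraries and 582 had 0 in all brain libraries. A transcript with 3 or fewer counts over 1 group passed the filter through the other group alone. The part of the filter in this near absence was not separated. With such low groups set to 3 counts, the median log2 fold change was 5.21 for the 1660 and -2.42 for the 1336, and 1178 and 360 reached a 16-fold difference. Over transcripts above that floor the medians were 3.55 and -2.07. The transcripts higher in brain had a median of 70.1 estimated counts in the brain libraries, and those higher in spleen a median of 336 in the spleen libraries. Together the 1660 held 25.3%, 22.4% and 20.8% of the mouse counts in brain replicates 1 to 3 and 2.37% and 2.27% in spleen. The 1336 held 31.4% and 26.3% in spleen replicates 1 and 2 and between 4.05% and 5.48% in brain. These sums follow from how the transcripts were called and are given to show their size: between 63.9% and 69.9% of the mouse counts of a library lay on transcripts that did not pass.

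Longer transcripts were called higher in brain at a larger share than shorter ones. Among tested transcripts of over 4000 bases, 11.9% were higher in brain and 5.88% in spleen, and among those of 501 to 1000 bases, 2.97% and 5.14%. The median length was 3408 bases for transcripts higher in brain, 2727 for those higher in spleen and 2704 for all tested. Of 19 tested transcripts of 200 bases or less, 0 passed. The part of length in a transcript's count, and so in the power of its test, was not separated from this difference.

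The largest differences by the fixed rule, 2 in each direction, can be given by identifier. ENSMUST00000027377, of 6006 bases, had 2131, 1666 and 2648 estimated counts in brain replicates 1 to 3 and 0 in both spleen libraries. In brain this was 1443 ± 615 CPM (SD, n = 3). Folds here and below are of counts pooled over a site against its pooled mouse total, not of mean CPM. With 3 counts over the group standing for the spleen libraries, this transcript was at least 3474-fold higher in brain (edgeR adjusted p = 0.0131). ENSMUST00000115230, of 1070 bases, had 691, 984 and 1511 counts in brain and 0 in both spleen libraries, at least 1718-fold higher in brain (edgeR adjusted p = 0.0163). Both were in every brain library, with the highest CPM in brain replicate 3 and the lowest in brain replicate 1.

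In the other direction, ENSMUST00000032179, of 7037 bases, had 811 and 1471 counts in spleen replicates 1 and 2 and 0 in all 3 brain libraries. In spleen it stood at 285 ± 34.7 CPM (SD, n = 2). By pooled counts, with 3 counts standing for the brain libraries, it was at least 470-fold higher than in brain (edgeR adjusted p = 0.0131). ENSMUST00000112715, of 1892 bases, had 1209 and 1257 counts in spleen, and 0.113 over the 3 brain libraries, which rounds to 0. It was at least 508-fold higher in spleen (edgeR adjusted p = 0.0134). All 4 lost their call with the occasion as a block (adjusted p = 0.0811 each) and without brain replicate 2 or either spleen library. An estimate of 0 for a transcript does not show that its gene is silent, since reads shared with another transcript of the gene can be given to that one.

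Many site differences seen in 1 pair of libraries recurred in another pair. The pairs were brain and spleen replicate 1 and brain and spleen replicate 2, which share no library. Transcripts were kept here by the first pair alone, with at least 10 estimated counts in brain or spleen replicate 1, so that the second pair had no part in the choice; 22451 transcripts met this. Of 4253 with a log2 difference of at least 2 towards brain in the first pair, on the log2(CPM + 1) scale, 3155 (74.2%) were higher in brain in the second, against 36.5% of all 22451. Of 4728 with at least 2 towards spleen, 3878 (82.0%) were higher in spleen in the second pair, against 59.6% of all 22451. A difference of at least 2 was found again for 2363 (55.6%) of the first set and 2143 (45.3%) of the second, against 13.7% and 17.6% of all 22451. The median difference in the second pair was 2.35 for the first set and -1.81 for the second. Across the 22451 transcripts, Pearson's r between the differences of both pairs was 0.66 and Spearman's rho 0.62. This is a description across transcripts, which share libraries and isoforms, and this filter was chosen after seeing the data.

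**Figure D5:**
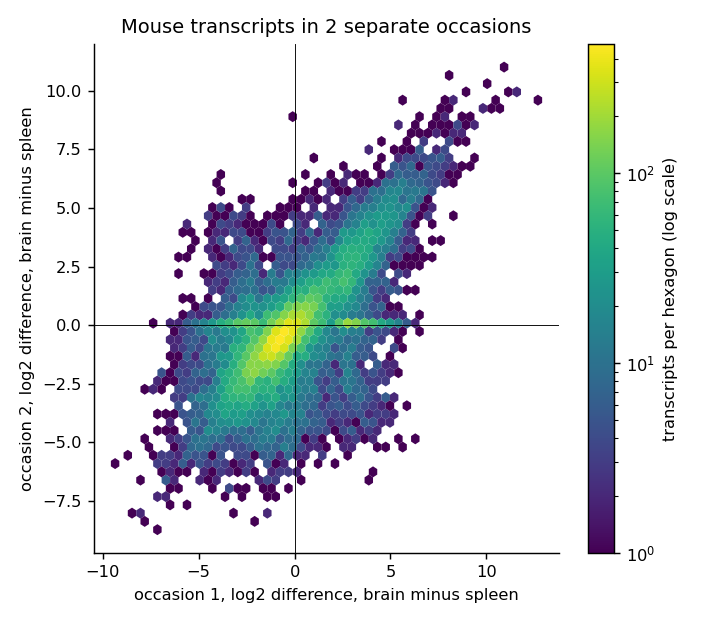
Log2 difference of brain minus spleen, on the log2(CPM + 1) scale, between the replicate 1 libraries (occasion 1, horizontal axis) and the replicate 2 libraries (occasion 2, vertical axis) for 22451 mouse transcripts, with the colour of a hexagon giving their number on a log scale. The cloud is tilted upwards (r = 0.66), with scatter on both axes.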

How the data were processed

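Estimated counts and TPM per transcript, with lengths, were deposited by the authors as 1 table per library. Tools named in the submitters' processing notes are kallisto 0.42.4, cutadapt 1.5, bcl2fastq 1.8.4 and DESeq2, with the builds GRCh38 and GRCm38. Per the file headers, human and mouse transcripts stand in 1 table, so reads that fit both species or several isoforms are shared out by a model: between 73.2% and 82.0% of the mouse estimates above 0 were not whole (tolerance 0.001). How many human reads were given to mouse transcripts was not tested. TPM sums to 1000000 over both species, per the file headers and values. The sources used here do not give the annotation release or the strand setting. The deposited gene tables hold human genes and were not used.

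Library totals were 40723808 to 53531087 estimated counts. Mouse estimates were rounded to whole numbers and tested by edgeR 4.0.16 (quasi-likelihood F test, R 4.3.3). The library size was the mouse total, the site was the only term, and transcripts had at least 10 counts in 2 or more libraries. P-values were adjusted by Benjamini-Hochberg over 20957 transcripts. The SE given with an edgeR value was derived as the absolute log2 fold change over the square root of F. There were 3 residual and 2.36 prior degrees of freedom, and the common biological coefficient of variation was 0.711. In all, 631 mouse rows carry 1 of 41 identifiers that stand on several rows. They hold 0.127% to 0.352% of mouse counts and stayed in the totals but out of the fit. On simulated data with these means and dispersions, 200 of 20957 transcripts were changed. Of these, 0 were recovered at a log2 change of 2, 97 at 4 and 125 at 6, with at most 5 false calls among the unchanged. In the data 14.3% passed, so the adjusted threshold was less strict there and these rates do not carry over. The fit called log2 fold changes as small as 0.97 and -0.83. It did not call 1425 of at least 2 and 2550 of at most -2. A transcript that did not pass is thus not shown to be unchanged.

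The replicate number marks an occasion, per the labels, and is taken to pair brain with spleen from the sample titles alone, since the deposited spleen tables carry other numbers. Deviations from the group means of all replicates had correlations of -0.009 (replicate 1) and 0.01 (replicate 2) between same-numbered libraries. The deviations of the spleen libraries are equal in size and opposite in sign, so these are not separate checks. They cannot decide whether the libraries are paired.

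Named were the 2 largest and 2 smallest log2 fold changes past the threshold with groups that do not overlap and a mean of at least 50 counts in the higher group. The lists of mouse cell type and pathway genes set for this work could not be applied without gene names. Members, lists and tests were chosen with earlier results of these data known. DESeq2 1.42.0 with its own scaling factors, other scalings and filters, a block for the occasion and leaving out each library were run as alternatives.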

Additional observations from a re-analysis of the deposited data

How the results depend on the processing

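The difference in mouse share was negative in all 9 alternatives. It was -2.69 to -5.23 percentage points without 1 library each, and -3.46 within occasions (the replicate block), as without brain replicate 3. Those settings could not change its direction, since the groups did not overlap by counts. By TPM, where the groups overlapped, it was -3.27. For transcripts higher in brain, 1660 of 20957 tested in the report, the count was 3548 by DESeq2 with its own scaling factors and 0 with the replicate block. It was 3175 of 59602 tested with no filter on low counts, and 1095 of 10217 tested with at least 50 counts in 2 libraries. Counts under different filters rest on different numbers tested, so they are not compared by size. Leaving out 1 library gave 0 to 1690. For transcripts higher in spleen, 1336 of 20957 tested in the report, the count was 4691 with whole-library totals and 2025 by DESeq2. It was 0 with the replicate block, 0 to 1586 without 1 brain library, and 2645 of 59602 tested with no filter. With at least 50 counts in 2 libraries, 1692 of 10217 tested were higher in spleen. The cause of these changes was not tested, and the replicate block has fewer residual degrees of freedom than the main fit. With a spleen library left out, the lone one is assumed to vary like the brain libraries. With the 3 settings added after seeing the data (no transcripts of 200 bases or less, totals without the 100 most abundant, repeated identifiers included), counts were 1663 to 1910 and 1335 to 1374. Each of the 4 transcripts given by identifier lost its call in 4 of 14 alternatives. Directions are not counted as stability here, since the called transcripts did not overlap between groups. The alternatives that need mouse gene names (sums per gene, and leaving out genes with few counts beside the human gene of the same symbol) were not run. Calls were fewer among low transcripts: of 2389 with a mean under 10 counts, 5.23% passed, against 37.9% of the 214 over 1000.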
